A study of Bos taurus with 30 samples.

Results

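Water channel transcripts of the bovine endometrium were followed by name in cytobrush samples taken at 7 days postpartum (DPP). Of the 4 aquaporins looked for, AQP4 (ENSBTAG00000019037) and AQP5 (ENSBTAG00000026813) were found among the 10476 genes with values, each as a single entry. AQP1 and AQP3 were not analysed here. AQP4 and AQP5 could therefore not be set against AQP1 of the vessels, and 11 endothelial genes stand in for the vessel side below. Each sample was 1 Holstein-Friesian cow of a commercial, mixed-parity herd, brushed at 7 DPP and grouped afterwards by its state at 21 DPP. Of 27 cows, 8 developed purulent vaginal discharge (PVD), 4 of them with cytological endometritis (CYTO) as well and 4 with PVD alone. A further 9 cows developed CYTO without PVD, and 10 remained healthy. The share of polymorphonuclear cells (PMN, mainly neutrophils) in the smear at 7 DPP divided the CYTO cows into 4 with high PMN (18% or more) and 5 with low PMN, and the healthy cows into 5 with high PMN and 5 with low PMN. All PVD cows had high PMN, so that PVD and PMN cannot be told apart where PVD cows are compared with all healthy cows. No group was treated, the ages of the cows are not given in the sources used here, and the groups were formed in retrospect from naturally occurring disease.

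Aquaporins are membrane proteins that let water follow an osmotic gradient across a cell. AQP5 is known as the apical channel of secretory epithelia such as salivary and airway glands, and AQP4 as a channel of the basolateral membrane of several epithelia and of astrocytes in the brain. AQP1 is the channel of capillary endothelium and red cells, AQP3 a basolateral channel that also passes glycerol, and AQP9 a channel for glycerol and other small solutes known from liver and leukocytes. In the uterus the glands and the surface epithelium secrete the fluid of the lumen, and chloride and bicarbonate transport is known to set the osmotic gradient for it. In the RefSeq annotation of cattle (ARS-UCD2.0, another assembly than the UMD3.1 build used for the files), AQP5 lies between AQP6 and AQP2, which were not analysed here, and AQP4 lies between CHST9 and KCTD1. The positions of the genes on UMD3.1 and their sequences were not used here.

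The libraries of the 27 cows held between 11922966 and 39202083 counted reads, with a median of 23107772. Values are CPM, the reads of a gene scaled to the counted reads of its library. Cows are named by their state and a number given in the order of the labels. A single read was worth between 0.0255 and 0.0839 CPM, and a count of 0 allowed up to 3 reads, or between 0.0765 and 0.252 CPM, which covers counting error only. Every gene in the tables reached 10 CPM in at least 5 of 30 libraries. AQP5 met this level in exactly 5 cows, all with low PMN, and AQP4 in 7 cows, 6 of them with low PMN. Both genes thus have values through the cows in which they were high, and a water channel that was low in every cow could not have been studied. Epithelial genes, which mark the endometrial cells named in the labels, were present in every library (14 genes, summed 450 to 6437 CPM over 27 cows), and stromal, endothelial, neutrophil and macrophage genes were present as well. In such bulk samples, fewer cells of a type and less RNA per cell cannot be told apart.

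AQP4 was abundant in most cows with low PMN and close to the detection limit in most cows with high PMN. It had 0, 0.434, 0.714 and 0.738 CPM in cows with PVD and CYTO. It had 0, 0.248, 0.510 and 2.75 CPM in cows with PVD alone. No PVD cow exceeded 101 AQP4 reads. In CYTO cows with high PMN, AQP4 had 0.0661, 0.282, 0.491 and 0.722 CPM. In CYTO cows with low PMN it had 0.945, 1.002, 2.93, 27.2 and 427 CPM, the last in CYTO cow 1, which held the highest AQP4 value of the 27 cows. The CYTO cows with low PMN thus spanned nearly the whole range of the gene, and the lowest of them stood above every CYTO cow with high PMN. In healthy cows with high PMN, AQP4 had 0, 0.288, 0.403, 0.812 and 10.99 CPM, the last in healthy cow 4. In healthy cows with low PMN it had 1.24, 36.2, 127, 147 and 320 CPM. The lowest of these, healthy cow 5, was the only healthy cow with low PMN that lay within the range of the healthy cows with high PMN.

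AQP5 divided the cows more sharply, with 5 cows from 28.7 to 262 CPM and the other 22 from 0 to 4.40 CPM. It had 0.114, 0.173, 0.237 and 0.436 CPM in cows with PVD and CYTO. In cows with PVD alone it had 0, 0.332, 0.372 and 0.734 CPM. In CYTO cows with high PMN it had 0, 0, 0.0470 and 0.688 CPM. None of these 12 diseased cows with high PMN exceeded 27 AQP5 reads. In CYTO cows with low PMN, AQP5 had 0.0363, 0.293, 0.959, 4.40 and 125 CPM, so that CYTO cow 1 was again far above the other 4. In healthy cows with high PMN it had 0.202, 0.288, 0.812, 0.851 and 1.01 CPM, a narrow range of 3 to 20 reads. In healthy cows with low PMN it had 0.450, 28.7, 99.9, 192 and 262 CPM. Healthy cow 5, with 12 reads, was again the low one of this group.

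**Figure D1:**
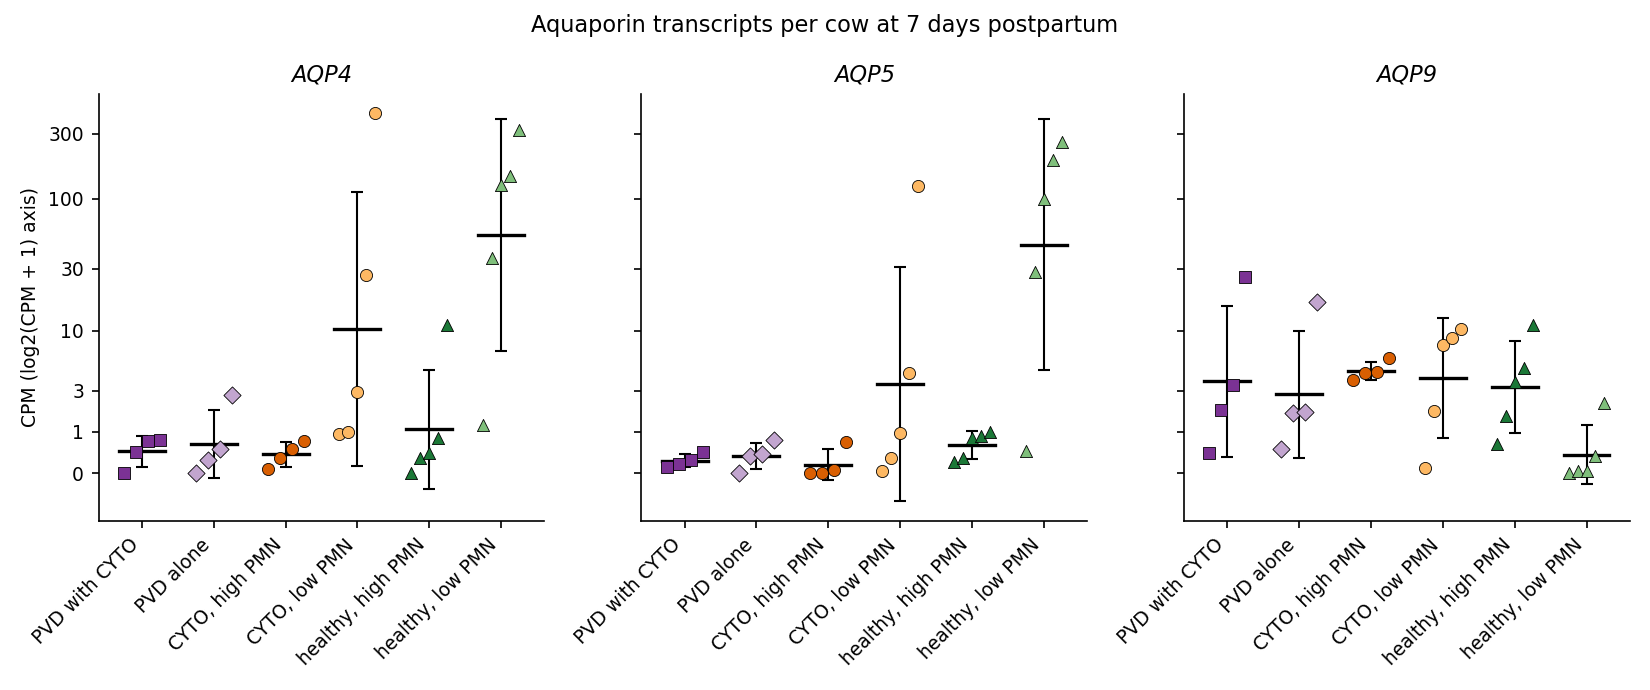
CPM of AQP4, AQP5 and AQP9 (vertical axis, log2(CPM + 1) scale) in 27 cows at 7 DPP, by state at 21 DPP and PMN at 7 DPP. Points are cows, bars the mean and SD of log2(CPM + 1). AQP5 lies between 28.7 and 262 CPM in 4 of 5 healthy cows with low PMN and in 1 CYTO cow with low PMN, and at 4.40 CPM or less in all others.

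In the order of the medians, AQP4 stood at 0.379 CPM in cows with PVD alone, 0.387 CPM in CYTO cows with high PMN, 0.403 CPM in healthy cows with high PMN, 0.574 CPM in cows with PVD and CYTO, 2.93 CPM in CYTO cows with low PMN and 127 CPM in healthy cows with low PMN. AQP5 stood at 0.0235 CPM in CYTO cows with high PMN, 0.205 CPM in cows with PVD and CYTO, 0.352 CPM in cows with PVD alone, 0.812 CPM in healthy cows with high PMN, 0.959 CPM in CYTO cows with low PMN and 99.9 CPM in healthy cows with low PMN. All neighbours in both orders overlapped in their ranges, except that the highest cow with PVD and CYTO (0.738 CPM of AQP4) lay below the lowest CYTO cow with low PMN (0.945 CPM). That pair was not tested.

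The first comparison asked how inflammation at the time of sampling went with the channels, with the later state of the cow as a covariate. Both channels were lower in the 9 healthy and CYTO cows with high PMN than in the 10 with low PMN. AQP4 averaged 1.56 ± 3.54 CPM in cows with high PMN (SD, n = 9) and 109 ± 151 CPM in cows with low PMN (SD, n = 10). On the log2(CPM + 1) scale the difference for AQP4 was -3.93 ± 1.01 (SE; 95% interval -6.05 to -1.82), with a Benjamini-Hochberg adjusted p of 0.0126 in limma, and 9 of 9 cows with high PMN lay below the mean of those with low PMN. AQP5 averaged 0.433 ± 0.405 CPM in cows with high PMN (SD, n = 9) and 71.3 ± 94.8 CPM in cows with low PMN (SD, n = 10). Its difference was -3.50 ± 0.97 (SE; 95% interval -5.53 to -1.46), with an adjusted p of 0.0165 in limma, and again 9 of 9 cows with high PMN lay below the mean of the others. The groups nevertheless overlapped for both genes, because some cows with low PMN had almost no aquaporin transcript. Both genes had values through the cows that reached 10 CPM. Low PMN was found in 6 of these 7 cows for AQP4 and in 5 of 5 for AQP5. The p values between high and low PMN, and those of PVD against healthy, were thus drawn from values that selected the genes. They are no independent support for a difference. Limma called 12.5% of the 10462 genes tested at an adjusted p under 0.05 and a log2 fold change beyond 1, and 3.69% as lower. It called 1303 genes with all cows and 852 without healthy cow 10. Adding 1 CPM before the logarithm understates the change of genes near 0: on the reads recovered from the CPM, edgeR, which called 11.1% of the genes, gave -6.72 for AQP4 (adjusted p = 0.00696) and -7.51 for AQP5 (adjusted p = 0.00532). Left-out cows did not end either call, with adjusted p values in limma from 0.00254 to 0.0260 for AQP4 and from 0.00308 to 0.0335 for AQP5.

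Within the healthy cows, AQP4 averaged 2.50 ± 4.75 CPM with high PMN and 126 ± 124 CPM with low PMN (SD, n = 5 each). The log2 difference of AQP4 was -4.72 ± 1.24 (SE), and it did not pass in limma (adjusted p = 0.111). AQP5 averaged 0.632 ± 0.362 CPM with high PMN and 117 ± 110 CPM with low PMN (SD, n = 5 each). Its log2 difference was -4.87 ± 1.21 (SE) and did not pass either in limma (adjusted p = 0.111). From these same cows, the study had reported AQP5 among its most significant genes, lower with high PMN. In this comparison limma called 0 of 10424 genes (0%), with 2691 at an unadjusted p under 0.05, edgeR called 0, and DESeq2 called 875 (8.39%), both channels among them. Healthy cow 5 decided the call. Without it limma called 20.6% of the genes, including AQP4 at -5.88 (adjusted p = 0.00110) and AQP5 at -6.12 (adjusted p = 0.000357). A single limma fit over all 6 groups, which shares the estimate of the spread, called 13.2% of the genes and both channels as well, with adjusted p values of 0.0164 for AQP4 and 0.0127 for AQP5.

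Within the CYTO cows, AQP4 averaged 0.390 ± 0.281 CPM with high PMN (SD, n = 4) and 91.7 ± 188 CPM with low PMN (SD, n = 5). The groups did not overlap, as was the case for 16.9% of the 10443 genes in the same direction. The log2 difference of -3.05 ± 1.48 (SE) did not pass in limma (adjusted p = 0.155), where 8.72% of the genes were called (911, and 537 without CYTO cow 4). AQP5 averaged 0.184 ± 0.337 CPM with high PMN (SD, n = 4) and 26.1 ± 55.1 CPM with low PMN (SD, n = 5). It reached 1 CPM in only 2 of these 9 cows, too few for the filter, and was not tested. Fitted without that filter, its log2 difference was -1.95, with a 95% interval from -4.92 to 1.01. The difference between the effect of high PMN in CYTO cows and that in healthy cows was 1.68 ± 2.04 (SE) for AQP4 and 2.91 ± 1.87 (SE) for AQP5 on the log2 scale. Neither passed in limma (adjusted p = 0.697 and 0.417), which called 0.0764% of the genes, and that of AQP4 turned to -1.85 in edgeR. Over left-out cows the AQP4 value ran from 1.04 to 2.99, at 2.99 without CYTO cow 1, 2.83 without healthy cow 5 and between 1.04 and 1.05 without healthy cow 8, CYTO cow 9 or CYTO cow 10. The genes called by limma numbered 8 with all cows and 588 (5.62%) without healthy cow 5, 122 without healthy cow 3 and 23 without CYTO cow 1, with neither channel among them under any left-out cow. A dependence of the PMN difference of the channels on the later state was thus not shown.

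**Figure D2:**
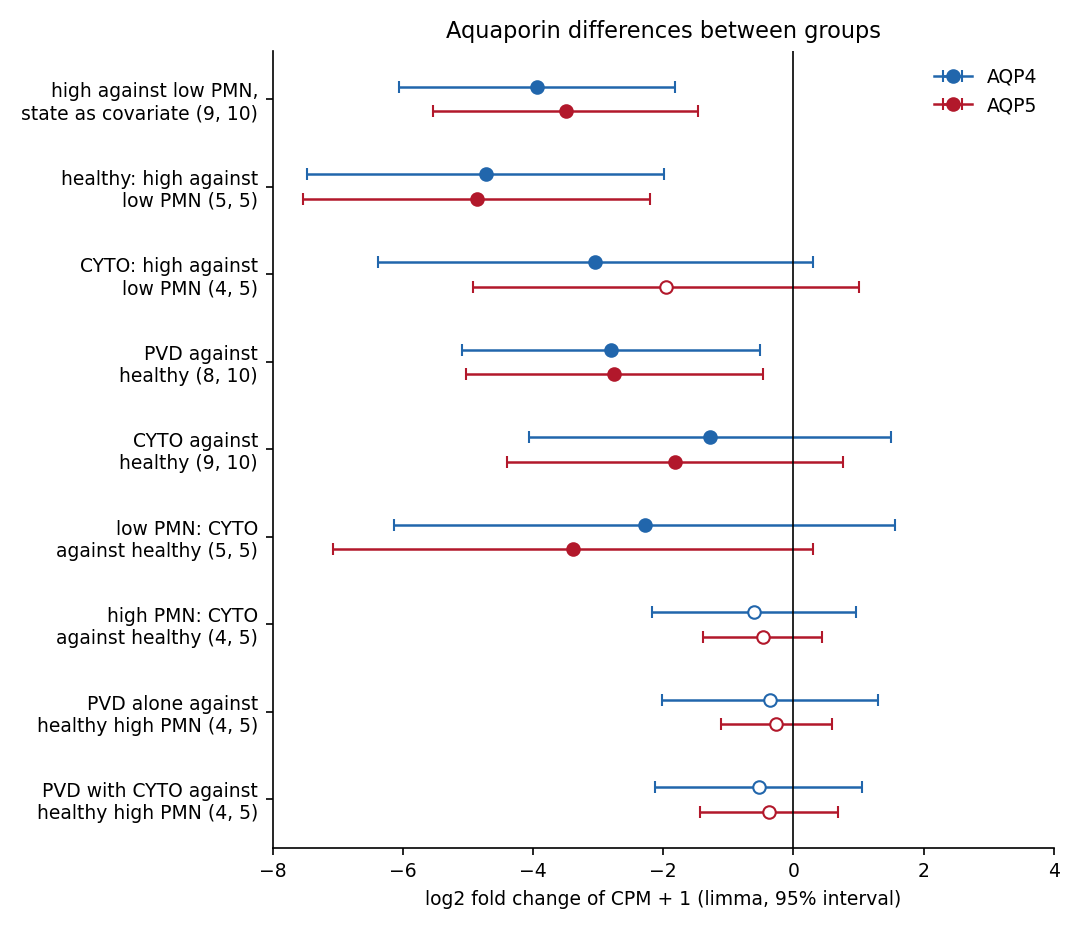
Log2 fold change of CPM + 1 (horizontal axis) of AQP4 and AQP5 in 9 comparisons, with the number of cows in each arm. Points are limma estimates and bars their 95% intervals. Open points were fitted without the filter on low values because the gene missed it. The estimates between high and low PMN lie between -4.87 and -1.95, and those among cows with high PMN between -0.61 and -0.26. Adding 1 CPM shrinks the latter.

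The second question was whether the channels at 7 DPP differed by the state at 21 DPP. AQP4 averaged 0.674 ± 0.885 CPM in PVD cows (SD, n = 8) and 64.4 ± 106 CPM in healthy cows (SD, n = 10), and all 8 PVD cows lay below the healthy mean. Its log2 difference was -2.81 ± 1.09 (SE; adjusted p = 0.199 in limma). AQP5 averaged 0.300 ± 0.226 CPM in PVD cows (SD, n = 8) and 58.6 ± 95.4 CPM in healthy cows (SD, n = 10), and its log2 difference was -2.75 ± 1.09 (SE; adjusted p = 0.202 in limma). Limma called 0 of 10454 genes (0%), with 2223 at an unadjusted p under 0.05, and edgeR called 0. DESeq2 called 700 (6.70%) with both channels, at -6.69 for AQP4 (adjusted p = 2.33e-05) and -7.59 for AQP5 (adjusted p = 6.07e-08). The fit over 6 groups called 5.82% of the genes and both channels too, at adjusted p values of 0.0486 for AQP4 and 0.0389 for AQP5 in limma. The healthy mean of this comparison rested on the cows with low PMN, which had no counterpart among the PVD cows. The study had reported AQP4, AQP5 and AQP6 as higher in healthy than in PVD cows, with AQP5 among its most significant genes.

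Against the healthy cows with high PMN alone, the log2 differences of the PVD cows were smaller, on values mostly under 1 CPM. AQP4 and AQP5 reached 1 CPM in too few of these cows to be tested, and the values fitted without the filter stand here with their intervals. For PVD alone, the log2 difference was -0.35 for AQP4 (95% interval -2.01 to 1.31) and -0.26 for AQP5 (-1.11 to 0.59). For PVD with CYTO, it was -0.54 for AQP4 (-2.12 to 1.05) and -0.37 for AQP5 (-1.43 to 0.68). The intervals of AQP4 reach beyond 1 on the log2 scale in either direction. The mean log2(CPM + 1) of the healthy cows with high PMN was 1.06 for AQP4 and 0.676 for AQP5. No fall on this scale can exceed those means. The small differences are thus set in part by the added 1 CPM, and they do not show that the groups were alike. Neither gene passed in limma (lowest adjusted p = 0.718), which called 0 genes (0%) in both comparisons with the filter, with 74 genes at an unadjusted p under 0.05 for PVD alone and 170 for PVD with CYTO. There edgeR called 0 genes in both, and DESeq2 called 0 for PVD alone and 10 (0.0959%) for PVD with CYTO.

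CYTO cows with high PMN had 0.390 ± 0.281 CPM of AQP4 (SD, n = 4), against 2.50 ± 4.75 CPM in healthy cows with high PMN (SD, n = 5), and that healthy mean rested on healthy cow 4. Fitted without the filter, the log2 difference was -0.61 for AQP4 (95% interval -2.17 to 0.96) and -0.47 for AQP5 (-1.39 to 0.45). Limma called 0.412% of the genes there (43, but 142 without healthy cow 3 and 2 without CYTO cow 4) and neither channel. Between PVD with CYTO and PVD alone, the log2 difference was -0.18 for AQP4 (-1.30 to 0.94) and -0.11 for AQP5 (-0.99 to 0.77). Between PVD with CYTO and CYTO with high PMN, it was 0.07 for AQP4 (-0.76 to 0.90) and 0.10 for AQP5 (-0.71 to 0.91). The CPM added before the logarithm limits these differences in the same way.

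In the cows with low PMN, the means of both channels were lower in those that developed CYTO than in those that stayed healthy, but the cows overlapped and neither gene passed. AQP4 averaged 91.7 ± 188 CPM in CYTO cows and 126 ± 124 CPM in healthy cows (SD, n = 5 each), and its log2 difference was -2.28 ± 1.73 (SE; adjusted p = 0.492 in limma). AQP5 averaged 26.1 ± 55.1 CPM in CYTO cows and 117 ± 110 CPM in healthy cows (SD, n = 5 each), with a log2 difference of -3.38 ± 1.66 (SE; adjusted p = 0.368 in limma). The CYTO means rested on CYTO cow 1, and the other 4 CYTO cows averaged 8.01 CPM of AQP4 and 1.42 CPM of AQP5. Over left-out cows the log2 difference of AQP4 ran from -3.60 (without CYTO cow 1; -3.44 without healthy cow 5) to -1.65. In 4 of 5 CYTO cows each gene lay below the healthy mean on the log scale, and CYTO cow 1 lay above it. Limma called 0 of 10428 genes (0%), with 1415 at an unadjusted p under 0.05, but 376 (3.62%) without healthy cow 5 and 58 (0.557%) without CYTO cow 1, neither channel among them. There edgeR called 0 genes and DESeq2 called 39 (0.374%), neither channel among them. Over all CYTO cows, the log2 difference from all healthy cows was -1.28 ± 1.33 (SE) for AQP4 and -1.82 ± 1.24 (SE) for AQP5, with an adjusted p of 0.986 for both in limma, which called 0 of 10462 genes (0%) and had 216 at an unadjusted p under 0.05. The AQP4 value was -2.10 without CYTO cow 1 and -0.73 without healthy cow 8. In that comparison edgeR called 0 genes and DESeq2 called 23 (0.220%), neither channel among them.

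Both channels were high in the same cows, but not in a fixed proportion. Pearson's r between log2(CPM + 1) of AQP4 and AQP5 was 0.92 over the 27 cows, 0.56 over the 17 cows with high PMN and 0.90 over the 10 with low PMN, the values of 1 gene pair within the same libraries. The ratio of AQP4 to AQP5 CPM, which is compared only between cows because the genes differ in length, could be formed in the 7 cows with at least 1 CPM of both. It was 3.42 in CYTO cow 1 and 6.17 in CYTO cow 6, both with low PMN. In healthy cow 4, with high PMN, it was 10.9, on 131 AQP4 and 12 AQP5 reads. Among healthy cows with low PMN it was 0.138 in healthy cow 2, 1.47 in healthy cow 10, 1.67 in healthy cow 8 and 4.42 in healthy cow 6. CYTO cow 1 therefore had the most AQP4 of the 27 cows with 125 CPM of AQP5, and healthy cow 2 the most AQP5 with only 36.2 CPM of AQP4.

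**Figure D3:**
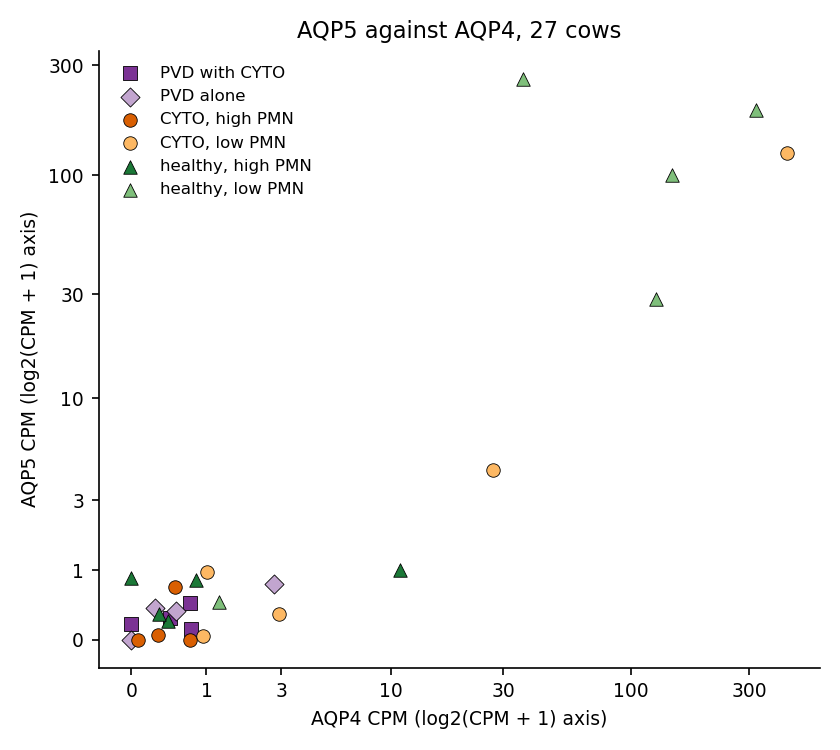
CPM of AQP5 (vertical axis) against AQP4 (horizontal axis), both on a log2(CPM + 1) scale, in 27 cows. Points are cows, coloured by group. Most cows lie near 0 for both genes, CYTO cow 6 and healthy cow 4 (27.2 and 10.99 CPM of AQP4) have little AQP5, and 5 cows with low PMN are high in both.

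Several gland genes were lower and several endothelial genes higher in cows with high PMN, while the other genes of each list did not pass. The 10 gland genes measured (lactoferrin LF, the mucin-folding protein AGR2 and the antibody transporter PIGR being the most abundant) summed to 85.8 to 2586 CPM in healthy and CYTO cows with high PMN and to 251 to 79815 CPM in those with low PMN. The 11 endothelial genes (FLT1 and KDR, receptors for vascular growth factor, and VWF the most abundant) summed to 234 to 656 CPM in cows with high PMN and to 19.4 to 585 CPM in those with low PMN. In the comparison by PMN, limma called 5 of 10 gland genes as lower and 0 as higher, with a median log2 difference of -3.35, and 4 of 11 endothelial genes as higher and 0 as lower, with a median of 1.14. Of all genes, 3.69% were called lower and 8.77% higher. The lists were chosen with earlier results of these data known. Among the gland genes, the study had reported LF, AGR2, CXCL17 and TMEM213 as lower in cows that developed PVD. In its own comparison of healthy cows by PMN, it had reported LF, CXCL17 and further genes of this list as lower with high PMN. The gland calls are therefore a description and no independent support. The gland gene CXCL17 was at 0 in 1 healthy high-PMN cow and the endothelial gene PLVAP at 0 in 1 healthy low-PMN cow. The median over all 10462 genes was 0.02. PIGR was among the gland genes that fell (-4.08 ± 1.24, SE; adjusted p = 0.0232 in limma), whereas LF (adjusted p = 0.0556) and AGR2 (adjusted p = 0.103) did not pass. FLT1 (2.84) and VWF (1.36) rose in cows with high PMN, and KDR did not pass (0.13; adjusted p = 0.887 in limma). The 9 neutrophil genes summed to 462 to 7195 CPM with high PMN and to 119 to 971 CPM with low PMN, and 9 of 9 were called higher, with a median of 2.54. Macrophage genes (8 of 11 higher, median 2.74), stromal genes (4 of 11 higher, 2.05), smooth muscle genes (2 of 9 higher, 1.58) and 1 of 2 squamous epithelial genes were called on the same side as the endothelial genes, and epithelial genes on the side of the gland genes (5 of 14 lower, median -1.21). The macrophage genes summed to 3990 to 47519 CPM with high PMN and 306 to 30684 CPM with low PMN, and the stromal genes to 9958 to 50284 CPM with high PMN and 179.7 to 35559.5 CPM with low PMN. The smooth muscle genes summed to 357 to 1190.2 CPM with high PMN and 27.3 to 3995 CPM with low PMN, with LMOD1 at 0 in 1 healthy cow with low PMN. The epithelial genes summed to 495 to 2585 CPM with high PMN and 620.3 to 6437 CPM with low PMN. What part these cell type differences had in the values of AQP4 and AQP5 was not tested.

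Cow by cow, the cows with low PMN and high AQP5 had high gland sums and low endothelial and stromal sums. CYTO cow 1, with 125 CPM of AQP5, had 46616 CPM of gland genes and 72.0 CPM of endothelial genes. Healthy cow 2, with 262 CPM of AQP5, had 79815 and 20.3 CPM of these genes. Healthy cow 8, with 192 CPM, had 59010 and 45.6 CPM, healthy cow 10, with 99.9 CPM, had 58548 and 19.4 CPM, and healthy cow 6, with 28.7 CPM, had 8870 and 98.4 CPM. All 5 thus combined high gland values with low endothelial values, on gene lists chosen with earlier results of these data known. The stromal genes were low in the same cows, at 2125 CPM in CYTO cow 1 and 407, 809, 179.7 and 10167 CPM in healthy cows 2, 8, 10 and 6, against 22276 to 35559.5 CPM in the other 5 cows with low PMN, so that the pattern was not particular to vessels. The macrophage genes summed to 306 to 472 CPM in healthy cows 2, 8 and 10, to 2088 CPM in healthy cow 6 and to 3980.05 CPM in CYTO cow 1, against 3623 to 30684 CPM in the other 5. Healthy cow 5, with 0.450 CPM of AQP5 in spite of its low PMN, had 312 CPM of gland genes and 468 CPM of endothelial genes, inside the ranges of cows with high PMN. The 4 remaining CYTO cows with low PMN had 251 to 2038 CPM of gland genes and 337 to 585 CPM of endothelial genes. CYTO cow 6, with 27.2 CPM of AQP4, had the highest gland sum of these 4, and healthy cow 4, with 10.99 CPM of AQP4, the highest gland sum of the 17 cows with high PMN (2586 CPM). In the comparison by state, the gland genes summed to 76.6 to 2115 CPM in PVD cows and 85.8 to 79815 CPM in healthy cows, and the endothelial genes to 260 to 734 CPM in PVD cows and 19.4 to 656 CPM in healthy cows.

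**Figure D4:**
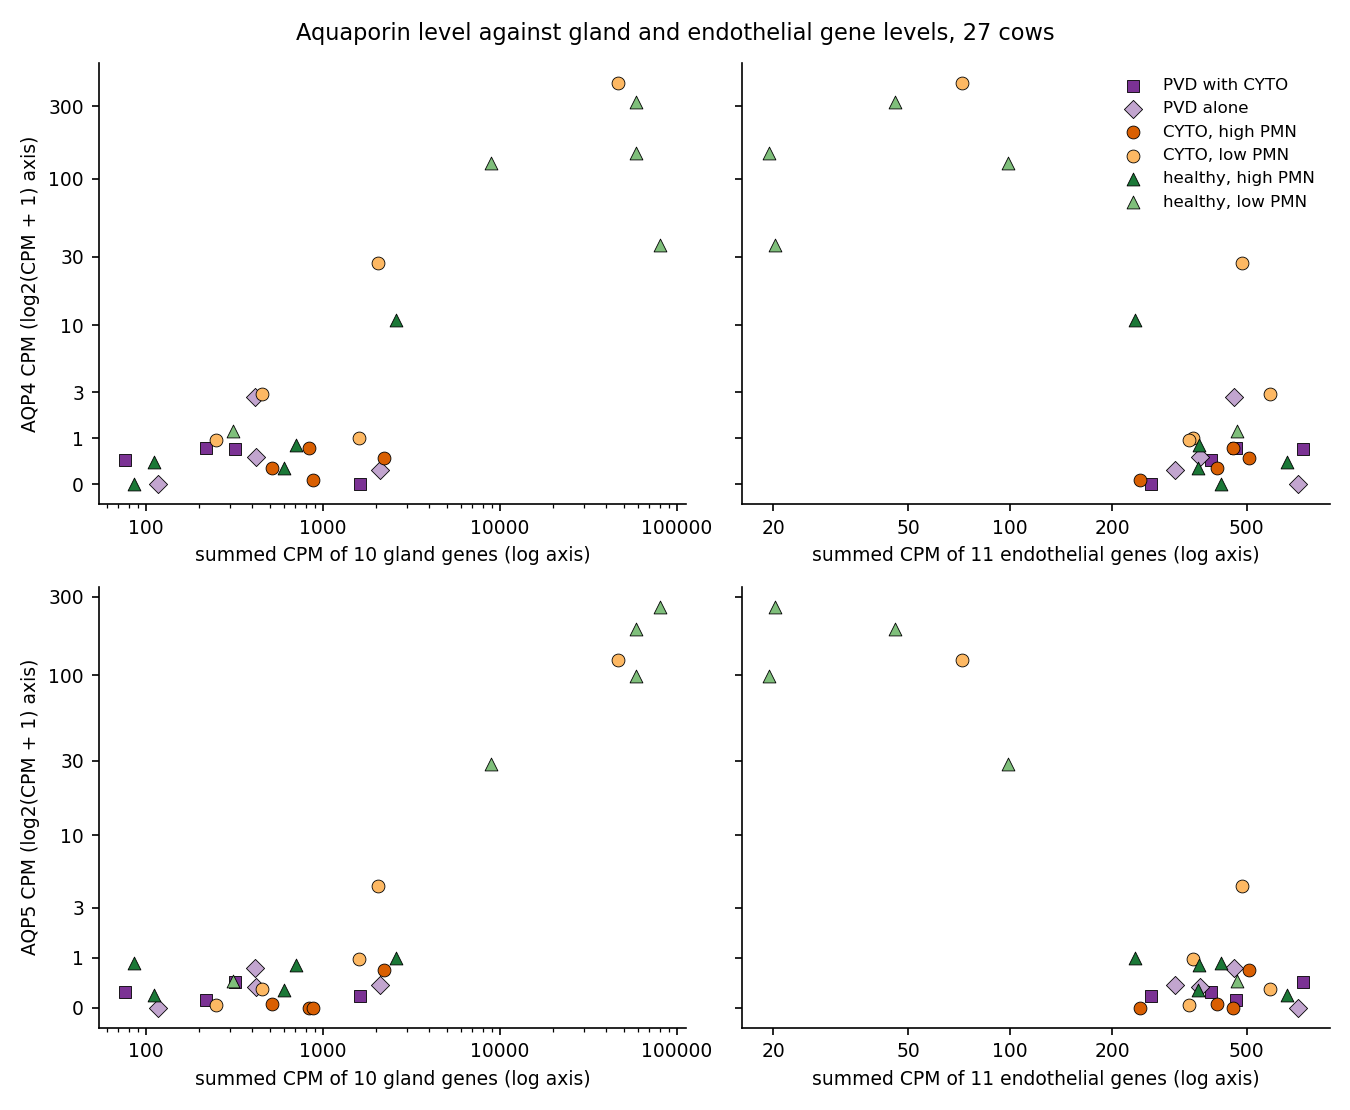
CPM of AQP4 (top) and AQP5 (bottom, vertical axes, log2(CPM + 1) scale) against the summed CPM of 10 gland genes (left) and 11 endothelial genes (right, horizontal log axes) in 27 cows, coloured by group. The 5 cows with at least 28.7 CPM of AQP5 have gland sums from 8870 to 79815 CPM and endothelial sums from 19.4 to 98.4 CPM.

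Of 21 genes listed for epithelial salt and water transport, 15 were measured, and the comparison by PMN called 5 of them lower and 3 higher, against 3.69% and 8.77% of all genes. Their median log2 difference was -0.81, against 0.02 over all genes. CFTR, the chloride and bicarbonate channel of fluid-secreting epithelia, averaged 20.8 ± 22.1 CPM with high PMN (SD, n = 9) and 123 ± 129 CPM with low PMN (SD, n = 10), a difference of -2.44 ± 0.61 (SE; adjusted p = 0.0118 in limma). ANO1, a calcium-activated chloride channel, averaged 6.44 CPM with high PMN and 59.1 CPM with low PMN (-2.16; adjusted p = 0.0160 in limma). SCNN1A, a subunit of the epithelial sodium channel that absorbs salt, averaged 5.16 CPM with high PMN and 49.8 CPM with low PMN (-2.20; adjusted p = 0.0246 in limma). KCNE3, a subunit of potassium channels, averaged 4.05 CPM with high PMN and 32.3 CPM with low PMN (-1.86; adjusted p = 0.0307 in limma). The genes that fell thus included both secretory and absorptive channels.

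Among those that rose was CA2, a carbonic anhydrase, with 39.2 CPM in cows with high PMN and 14.04 CPM in cows with low PMN (1.74; adjusted p = 0.0167 in limma). ATP12A, a proton and potassium pump of epithelia, had 113 CPM with high PMN and 43.2 CPM with low PMN (2.79; adjusted p = 0.0197 in limma). SLC12A2, which brings chloride into secretory cells, did not pass at -1.42 (adjusted p = 0.0616 in limma). Within the CYTO cows alone, CFTR was the only gene of the list that limma called, with 11.4 CPM at high PMN and 79.3 CPM at low PMN (-2.57; adjusted p = 0.00830). Limma called 8.72% of all genes in that comparison, 3.41% as lower, so this single call does not set the list apart.

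**Figure D5:**
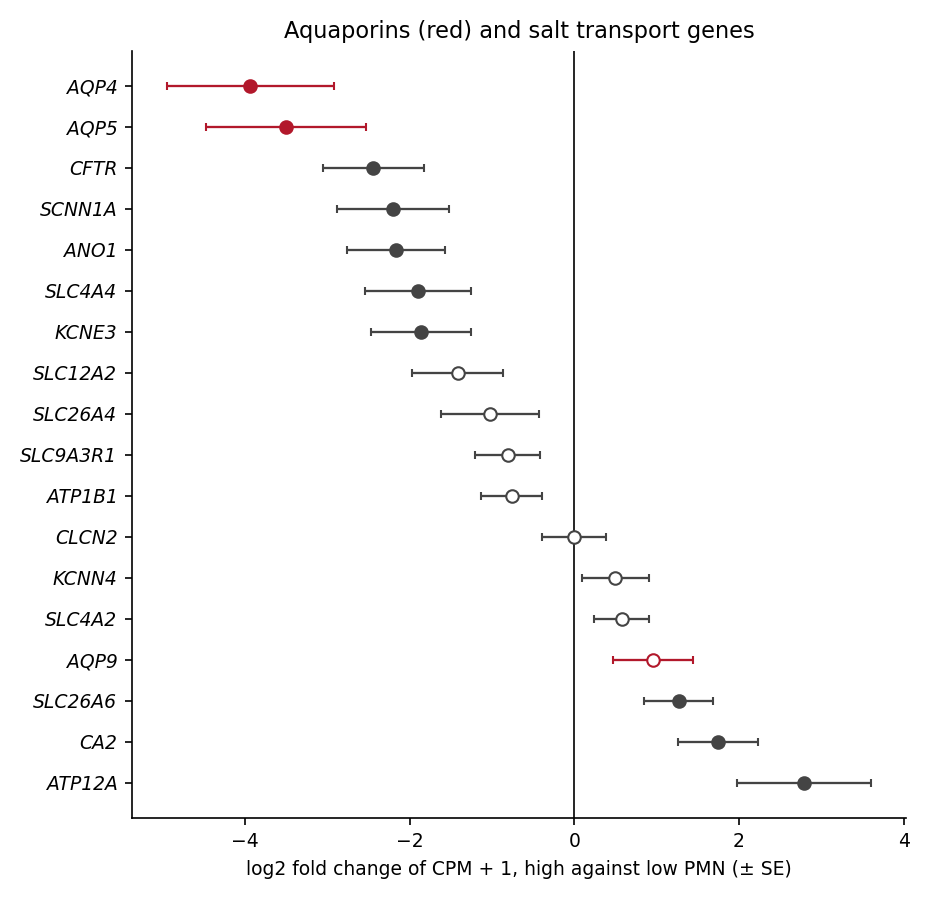
Log2 fold change of CPM + 1 between healthy and CYTO cows with high PMN (n = 9) and those with low PMN (n = 10) for 3 aquaporins (red) and 15 salt transport genes (grey). Points are limma estimates with state at 21 DPP as a covariate, bars are SE, and filled points were called. AQP4 (-3.93) and AQP5 (-3.50) lie at one end and ATP12A (2.79) at the other.

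The genes whose pattern over the 27 cows was most like AQP4, passing over genes without a symbol, were DYNLRB2 (Pearson's r of log2(CPM + 1) 0.96), TMEM213 (0.96), SLC22A4 (0.95), DRC1 (0.95) and C3H1orf87 (0.95). DYNLRB2 is a dynein light chain, DRC1 a part of the regulatory complex of cilia and SLC22A4 a carrier of organic cations. Those most like AQP5 were CES1 (0.99), ERN2 (0.99), PLA2G10 (0.98) and C8H9orf152 (0.98). CES1 is a carboxylesterase, PLA2G10 a secreted phospholipase and ERN2 a sensor of endoplasmic reticulum stress known from mucus-secreting cells of the mouse. The 2 channels shared none of these genes, and each stood behind many other genes in likeness to its partner, with AQP5 at place 39 for AQP4 and AQP4 at place 69 for AQP5. Within the 17 cows with high PMN, r was 0.59 to 0.94 for the AQP4 genes and 0.25 to 0.65 for these AQP5 genes, at levels of few reads. Within the 10 cows with low PMN it was 0.91 to 0.96 for the AQP4 genes and 0.99 for each of the 4 AQP5 genes. DRC1 belongs to the cilia list and TMEM213 to the gland list used here. The 3 cilia genes measured summed to 5.80 to 11.99 CPM in healthy and CYTO cows with high PMN and to 9.46 to 247 CPM in those with low PMN, and all 3 were called lower in the comparison by PMN.

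Of 14 aquaporin family names, only AQP9 (ENSBTAG00000013452) had values here beside both members. The study reported AQP6 as well, so a name without values here may still have been detected. AQP9 had 0.395, 1.87, 3.41 and 26.2 CPM in cows with PVD and CYTO, and 0.490, 1.76, 1.81 and 16.6 CPM in cows with PVD alone. It had 3.80, 4.42, 4.52 and 5.88 CPM in CYTO cows with high PMN and 0.0925, 1.86, 7.63, 8.65 and 10.4 CPM in CYTO cows with low PMN. In healthy cows it had 0.638, 1.61, 3.61, 4.84 and 11.1 CPM with high PMN and 0, 0.0392, 0.0436, 0.323 and 2.25 CPM with low PMN. The highest of the last group was healthy cow 5, the cow with the least AQP4 and AQP5 in it, and the lowest CYTO value (0.0925 CPM, 3 reads) was that of CYTO cow 1. By PMN with the state as a covariate, the log2 difference of AQP9 was 0.96 ± 0.49 (SE) and did not pass in limma (adjusted p = 0.139). On the log2(CPM + 1) scale, 8 of 9 cows with high PMN lay above the mean of those with low PMN. AQP9 was called in none of the 11 comparisons of groups by limma.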

How the data were processed

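RNA from endometrial cytobrushes was sequenced by the authors from stranded mRNA libraries. Per the labels' processing notes, STAR, featureCounts, the UMD3.1 build, R 3.3.2 and edgeR 3.18.0 were used. The deposited values are CPM that the authors computed from counted reads. All values (100%) were whole multiples of 1 read within a tolerance of 0.01, so reads were recovered, although 13 of 30 libraries had fewer than 100 low values to check this on. The authors' own fold changes and p-values beside them were not used. The labels gave healthy, sub-clinical and clinical cows, taken here as healthy, CYTO and PVD. PMN classes and the split of PVD cows by CYTO came from the study's table of cows. Its sets match the columns of the deposited tables by class but for 3 cows outside it. The sequencing pool of each library is not given in the sources used here.

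Genes that reached 1 CPM in 5 of the compared libraries (4 where a group had 4 cows) were tested with limma 3.58.1 (trended eBayes, R 4.3.3) on log2(CPM + 1), with Benjamini-Hochberg adjustment over all genes, and called at an adjusted p under 0.05 and a log2 fold change beyond 1. The code was also run on simulated counts with the same spread for every gene. Those counts do not resemble the aquaporin values, which were high in few cows, so the run does not bear on their tests. Alternatives were a pseudocount of 0.1, no filter, TMM and DESeq2 size factors, edgeR 4.0.16 and DESeq2 1.42.0 on recovered reads, a fit over 6 groups, left-out cows and 3 cows outside the study's set. Comparisons share cows. Members and gene lists were chosen with earlier results of these data known. The text names the members, the 5 genes most like each by Pearson's r, up to 6 called genes per comparison of the transport and aquaporin lists, and up to 3 most abundant genes of a cell type list. SLC12A2 was named after its values were seen. A gene of the transport list and 1 of those most like AQP5 are not reported here.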

Additional observations from a re-analysis of the deposited data

Results flagged for a closer look

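In 18 groups of 4 to 10 cows (9 groups for each channel), the highest or lowest cow was compared with the rest on the log2(CPM + 1) scale, and 4 stood apart. About 1 in 20 separate groups would do so by chance. These groups share cows, and both channels were high in the same cows, so the count of 4 cannot be read against that rate. AQP4 had 10.99 CPM in healthy cow 4, the highest of the 5 healthy cows with high PMN, where the next had 0.812 CPM. AQP4 had 2.75 CPM in PVD cow 1, the highest of the 8 PVD cows. AQP5 had 0.688 CPM in CYTO cow 4, the highest of the 4 CYTO cows with high PMN, which rests on 14 reads. AQP5 had 125 CPM in CYTO cow 1, the highest of the 9 CYTO cows, where the next had 4.40 CPM.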

How the results depend on the processing

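The calls of both channels between high and low PMN with the state as a covariate held under every alternative run, with log2 differences from -6.75 to -3.40 for AQP4 and from -7.51 to -3.04 for AQP5. None of the alternatives removes the selection of both genes through cows with low PMN. For PVD against healthy, DESeq2 and the fit over 6 groups called 2 channels where limma called 0, and left-out cows gave 0 throughout. For healthy cows with high against low PMN, DESeq2 and the fit over 6 groups also called 2 where limma called 0, and left-out cows gave 0 to 2, the 2 being without healthy cow 5. The interaction of AQP4 reversed to -1.85 in edgeR and -1.92 in DESeq2, and passed in neither; the cause was not tested. In the other 8 comparisons no alternative that gave a value called a channel. DESeq2 gave no adjusted p for AQP4 within the CYTO cows, and leaving out any of 5 healthy cows took AQP5 below the filter for PVD against healthy. Against an all-gene median of -0.13 for PVD against healthy, 0.14 for healthy cows by PMN, -0.14 for CYTO cows by PMN and 0.20 for CYTO against healthy at low PMN, TMM gave medians of 0.00, -0.01, 0.01 and -0.01. At this depth the cows with high PMN had 0 to 27 AQP5 reads per library, and the 1 CPM filter and the added 1 CPM also bear on these values. No paired analysis was possible because each cow belongs to a single group.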

Other observations

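The 3 cows outside the study's set entered only an alternative. Of these, sub-clinical cow 2 had 0 CPM of AQP4 and 0.266 CPM of AQP5. Clinical cow 5 had 3.92 and 3.24 CPM of these channels, with 2738 CPM of gland genes, and clinical cow 9 had 0 and 0.635 CPM, with 1413 CPM of gland genes. All 3 lay far below the medians of the healthy cows with low PMN (127 CPM of AQP4 and 99.9 CPM of AQP5), as did every cow with high PMN. The deposited comparisons place all 3 with cows of high PMN. The 17 such cows of the study's set had at most 10.99 CPM of AQP4 and 1.01 CPM of AQP5. The study left out 3 sequenced samples because their vaginal mucus scores raised the possibility of clinical metritis. Their AQP9 values were 23.1, 12.03 and 8.26 CPM. With these cows included, the log2 difference of PVD against healthy was -2.70 for AQP4 (adjusted p = 0.0917 in limma) and -2.54 for AQP5 (adjusted p = 0.103).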
